A study of Homo sapiens with 14 samples.

Results

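The 10 genes described here make serine and glycine, move their carbon units onto folate, or break glycine down. They are PHGDH, PSAT1, PSPH, SHMT1, SHMT2, MTHFD1, MTHFD2, GLDC, AMT and GCSH, 10 of the 20046 genes that the platform annotation names. Together they have 16 probes, and all 10 genes were among the 11892 detected on at least 2 of the 8 LNCaP shRNA arrays, so that all of them could be followed. The differences between each array labelled FoxA1 and its control, and between R1881 and hormone-deprived medium, were already known when these genes were picked. For the 10 genes those differences are therefore a description: the number of them past a threshold is printed beside the share of all genes, and nothing is read from it. The fit serves as a test for other genes only, and the lists of those genes were also chosen with earlier results of these data known.

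Serine is made from the glycolytic intermediate 3-phosphoglycerate by PHGDH, PSAT1 and PSPH in turn. The SHMT enzymes then convert serine to glycine and load its side-chain carbon onto tetrahydrofolate, SHMT1 in the cytosol and SHMT2 in mitochondria. The MTHFD enzymes interconvert the carbon-loaded folates that feed thymidylate and purine synthesis. The glycine cleavage system of mitochondria, which includes GLDC, AMT and GCSH, breaks glycine down and loads another folate carbon.

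The purpose of the study was to follow what FoxA1, a transcription factor that opens chromatin, does in prostate cancer cells apart from its role with the androgen receptor. In LNCaP, an androgen-sensitive prostate cancer line, 4 arrays came from cells with a control shRNA, shCtrl, and 4 from cells with an shRNA to FoxA1, shFoxA1. Each of these groups had 2 numbered replicates with no medium in the title, 1 array labelled R1881, a synthetic androgen, and 1 labelled hormone-deprived. LNCaP was also measured with a control or a FoxA1 siRNA, 22RV1, a prostate cancer line, with a control or a FoxA1 shRNA, and PC-3M, a metastatic derivative of the PC-3 line, as control or labelled FoxA1, with 1 array each. The labels call the 22RV1 and PC-3M lines stable and describe the PC-3M FoxA1 line as overexpressing. All lines were kept in RPMI with serum; the protocol given for all 8 LNCaP shRNA arrays has 3 days of charcoal-stripped medium and then 1 nM R1881 for 24 hours, so the medium of the numbered replicates is not settled by the labels. The protocol of the siRNA and 22RV1 arrays names the same treatment for some experiments without saying which, so whether these 4 arrays had R1881 is not known, and that of PC-3M names no androgen. Nothing in the labels says that the numbered replicates were separate cultures, so p-values measure only the spread between these arrays, and in RNA from whole cultures fewer cells of a kind and less RNA per cell cannot be told apart.

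RefSeq promoter sequences, the 250 bases before the gene's start in the build GRCh38.p14, were at hand for 8 of the 10 genes. The 3 printed here are those of GLDC, which was lower with FoxA1 shRNA by at least 2-fold in all 4 LNCaP pairs, of SHMT1, the 1 gene of the 10 that was higher in all 4 LNCaP shRNA pairs, and of MTHFD1, the 1 gene with a motif match. The GLDC window lies at chr9:6645730-6645979 on the minus strand, the SHMT1 window at chr17:18363551-18363800 on the minus strand and the MTHFD1 window at chr14:64388103-64388352 on the plus strand. Each is written 5′ to 3′ and ends just before the start of the gene, with a motif match in capitals.
GLDC: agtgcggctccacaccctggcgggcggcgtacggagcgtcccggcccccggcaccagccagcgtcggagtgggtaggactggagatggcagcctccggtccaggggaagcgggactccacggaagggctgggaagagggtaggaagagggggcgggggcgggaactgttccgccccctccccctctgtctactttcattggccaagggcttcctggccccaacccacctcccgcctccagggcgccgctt
SHMT1: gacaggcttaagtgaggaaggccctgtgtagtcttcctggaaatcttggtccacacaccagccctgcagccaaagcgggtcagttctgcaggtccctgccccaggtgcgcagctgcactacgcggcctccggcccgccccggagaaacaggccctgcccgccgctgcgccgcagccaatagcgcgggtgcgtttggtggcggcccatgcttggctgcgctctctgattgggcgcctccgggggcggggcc
MTHFD1: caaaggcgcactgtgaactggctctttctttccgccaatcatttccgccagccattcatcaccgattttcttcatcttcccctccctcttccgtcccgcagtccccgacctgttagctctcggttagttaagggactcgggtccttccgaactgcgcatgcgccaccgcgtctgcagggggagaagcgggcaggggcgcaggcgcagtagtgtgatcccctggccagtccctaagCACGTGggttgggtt
Both strands were searched for the exact letters of 5 motifs: the forkhead motifs TGTTTAC and TGTTTGC, which differ in 1 letter, the motif TGATGNAA of ATF4 with its partners, the palindromic androgen receptor element and the E-box CACGTG. The single match in the 8 windows was an E-box 15 bases before the start of MTHFD1, in capitals above. Of the 35116 promoters in the table, 6.34% held CACGTG, 2.98% TGTTTAC, 3.23% TGTTTGC, 3.14% TGATGNAA and 0.00285% the androgen receptor element. No letters of the forkhead motifs were found in the GLDC or SHMT1 window, which says nothing of sites elsewhere.

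FOXA1 itself was measured first, as a check of the labels. Its log2 normalized intensity was 11.64 to 12.11 on the 4 shCtrl arrays and 10.36 to 11.37 on the 4 shFoxA1 arrays, and the 4 pair differences ran from -1.28 to -0.73. It fell by 0.81 in the siRNA pair and by 1.11 in the 22RV1 pair, without a test. On the PC-3M array labelled FoxA1 the FOXA1 probe read lower than on the control, 8.89 against 10.40, which goes against the label. Whether that probe reads an introduced FOXA1 transcript is not known, so no direction is drawn from that label here. The arrays of the LNCaP shRNA table had a mean deposited intensity of 157 to 285, and the others of 208 to 447. Of 8 prostate epithelial markers 7 had a probe. All 7 were detected on every LNCaP and 22RV1 array except the hormone-deprived shCtrl array, where KLK2 was not detected, and only SLC45A3, KRT8, KRT18 and EPCAM were detected in PC-3M. Markers of fibroblasts were detected in 0 to 4 of 6 cases per array and of endothelium in 0 to 2 of 5. Of the leukocyte list, which also holds the haemoglobin gene HBB, 1 to 4 of 6 were detected. CD68 was detected on all 14 arrays.

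PHGDH and PSAT1, the first enzymes of serine synthesis, were lower with FoxA1 shRNA in both numbered replicates. They differed less in the R1881 and hormone-deprived pairs. PSPH, the last, was lower in 3 of the 4 pairs matched by title. Values are log2 normalized intensities, and within each group the order is replicate 1, replicate 2, R1881 and hormone-deprived. PHGDH, the first and committed enzyme of the route, read 12.53, 12.14, 12.29 and 12.55 on the shCtrl arrays and 11.19, 11.54, 12.52 and 12.34 on the shFoxA1 arrays. The 2 numbered shFoxA1 arrays were the lowest of the 8, while the R1881 and hormone-deprived shFoxA1 arrays lay inside the range of the controls. The pair differences were -1.34, -0.60, 0.23 and -0.21, and the fitted difference was -0.48 (SE 0.22, 4 arrays a side). Without replicate 1 it was -0.19.

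PSAT1, the aminotransferase that makes phosphoserine, read 10.59, 10.16, 10.64 and 10.82 on the shCtrl arrays and 9.16, 9.10, 10.44 and 10.36 on the shFoxA1 arrays. It was lower with FoxA1 shRNA in all 4 pairs, most in the numbered replicates, yet the groups overlapped because both labelled-medium shFoxA1 arrays lay above the shCtrl array of replicate 2. The pair differences were -1.44, -1.06, -0.20 and -0.45 and the fitted difference -0.79 (SE 0.21). A second PSAT1 probe was not detected on any of the 8 arrays. PSPH, the phosphatase that releases serine, read 8.86, 8.40, 8.41 and 8.14 on the shCtrl arrays and 8.08, 8.84, 7.67 and 7.62 on the shFoxA1 arrays. It was lower in 3 pairs and higher in replicate 2, with a fitted difference of -0.40 (SE 0.20). Both numbered shFoxA1 arrays lay below the shCtrl array of replicate 1, so the direction in replicate 2 depends on matching arrays by their number. The second PSPH probe, also detected on all 8 arrays, gave -0.25 (SE 0.24). It differed in sign from the first in 2 pairs, with -0.06 in replicate 2 and 0.53 in the R1881 pair.

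**Figure D1:**
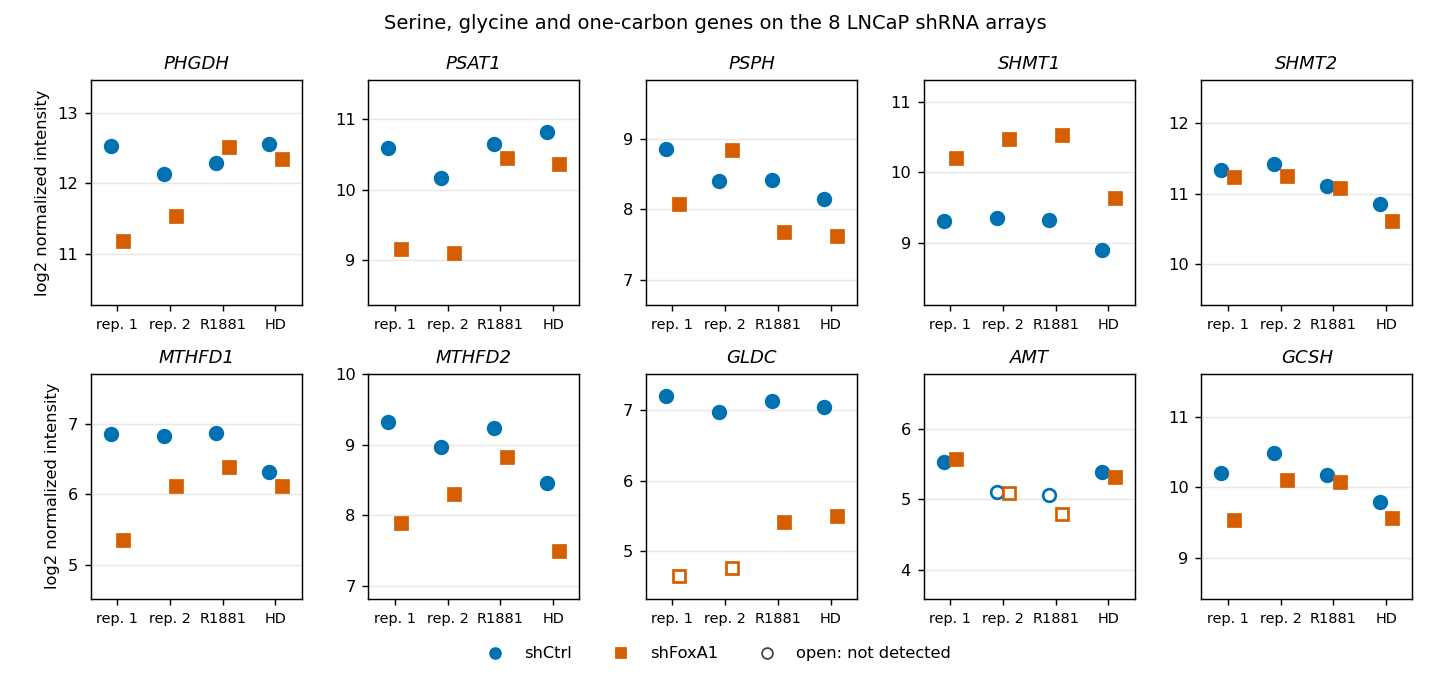
Log2 normalized intensity (vertical axis, a 3.2-unit window in each panel) of the 10 genes on each of the 8 LNCaP shRNA arrays, 1 point per array, with shCtrl as blue circles, shFoxA1 as orange squares, open symbols where the probe was not detected, and HD for hormone-deprived. The 4 shFoxA1 arrays lie below all 4 shCtrl arrays for GLDC and above them for SHMT1, and the groups overlap for the other 8 genes.

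The cytosolic and mitochondrial serine hydroxymethyltransferases differed in their pattern. SHMT1 read 9.32, 9.36, 9.32 and 8.90 on the shCtrl arrays and 10.20, 10.47, 10.53 and 9.64 on the shFoxA1 arrays. All 4 shFoxA1 arrays were above all 4 shCtrl arrays, and the hormone-deprived array was the lowest in each group. The pair differences were 0.88, 1.11, 1.21 and 0.73, the fitted difference was 0.98 (SE 0.13), and the fitted levels were 1.98-fold apart. The 2 other SHMT1 probes gave 1.06 (SE 0.17) and 0.63 (SE 0.15), so all 3 pointed the same way. SHMT2 stayed within 10.85 to 11.43 on the shCtrl arrays and 10.61 to 11.26 on the shFoxA1 arrays, with overlapping groups. Its fitted difference was -0.14 (SE 0.11).

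Both MTHFD genes were lower with FoxA1 shRNA in all 4 pairs. MTHFD2, the mitochondrial dehydrogenase and cyclohydrolase, read 9.32, 8.96, 9.24 and 8.46 on the shCtrl arrays and 7.89, 8.30, 8.83 and 7.50 on the shFoxA1 arrays. The groups overlapped through the hormone-deprived shCtrl array and the R1881 shFoxA1 array. The pair differences were -1.43, -0.66, -0.41 and -0.97, and the fitted difference was -0.86 (SE 0.17), or 1.82-fold. MTHFD1, the cytosolic enzyme that joins 3 activities in 1 protein, read 6.85, 6.82, 6.87 and 6.31 on the shCtrl arrays and 5.36, 6.11, 6.38 and 6.11 on the shFoxA1 arrays. It was lowest by far on the replicate 1 shFoxA1 array, close to the lowest signal of a detected probe on that array, 5.27. The groups overlapped slightly at 6.31 to 6.38. The fitted difference of MTHFD1 was -0.72 (SE 0.22), and without replicate 1 it was -0.46.

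In the glycine cleavage system only GLDC was lower on every shFoxA1 array than on every shCtrl array. GLDC, the glycine decarboxylase that starts the reaction, read 7.19, 6.97, 7.13 and 7.04 on the shCtrl arrays and 4.64, 4.76, 5.41 and 5.50 on the shFoxA1 arrays. The deposited background-subtracted intensities behind these values were 140, 104, 189 and 117 with shCtrl and -2.30, 4.40, 19.9 and 23.4 with shFoxA1. The gene was detected on all 4 shCtrl arrays, and with shFoxA1 on the R1881 and hormone-deprived arrays but on neither numbered replicate, where only a bound can be given. In the numbered replicates GLDC was at least 3.52-fold lower, taking the lowest signal of a detected probe as the level of the undetected arrays. In the R1881 and hormone-deprived pairs, where both arrays detected it, the differences were -1.72 and -1.54. The fitted difference was -2.01 (SE 0.17), which rests in part on background values on the 2 undetected arrays. It was -1.31 with a background offset of 50 and -4.07 without background correction, so its size depends on how background is treated.

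GCSH, which carries the glycine-derived aminomethyl group between the other subunits, was lower in all 4 pairs by 0.10 to 0.67 with overlapping groups. Its fitted difference was -0.34 (SE 0.17). The other 2 GCSH probes gave -0.32 (SE 0.17) and -0.0084 (SE 0.14), the latter from a probe detected on 3 of the 8 arrays. AMT, the aminomethyltransferase, was detected on only 4 of the 8 arrays, 2 on each side. Its values spanned 4.80 to 5.58 with no separation of the groups, and the fitted difference was -0.08 (SE 0.16).

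Read over the whole table, 3 of the 10 genes passed an adjusted p of 0.05 in the limma fit, GLDC and MTHFD2 lower and SHMT1 higher, where 7.9% of the 11892 genes did (3.74% lower and 4.15% higher). Among the alternatives of the closing section, GLDC passed in 18 of 20, SHMT1 in 16 of 21 and MTHFD2 in 10 of 21. These alternatives refit the same arrays and add no test of the 10 genes. GLDC was 1 of the 5.89% of genes whose 4 shFoxA1 arrays all lay below the shCtrl arrays, and SHMT1 1 of the 5.28% with all of them above. In all 4 pairs 6 of the 10 genes were lower, where 18.5% of all genes were, and 1 was higher, where 17.5% were. The median fitted difference of the 10 genes was -0.44, and that of all genes -0.0070. Since the genes were picked with these comparisons known, nothing is read from the counts. In replicate 1 of the shRNA pairs 5 of the 10 genes were at least 2-fold lower and 0 higher, where 14.9% of all genes were 2-fold apart in either direction. In replicate 2 the counts were 2 lower and 1 higher, where 5.93% of all genes were that far apart. In the R1881 pair they were 1 lower and 1 higher, where 3.74% were, and in the hormone-deprived pair 1 lower and 0 higher, where 1.8% were. GLDC was the gene lower by at least 2-fold in each of the 4 pairs.

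A second knockdown agent and a second line gave 1 more pair each, without replicates and therefore without a test. With FoxA1 siRNA in LNCaP, GLDC fell from 7.90 to 6.60, a difference of -1.30, and was the 1 gene of the 10 past 2-fold, where 3.33% of all genes were. SHMT1 was 10.32 with control siRNA and 11.03 with FoxA1 siRNA, a difference of 0.72 in the direction of the shRNA pairs. MTHFD1, PSAT1, MTHFD2, PHGDH and GCSH differed by -0.41, -0.37, -0.27, -0.19 and -0.16, and PSPH and SHMT2 by 0.15 and 0.13. AMT went from a detected 5.10 to an undetected 4.41, at least 1.51-fold lower.

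In 22RV1 none of the 10 genes reached 2-fold (3.16% of all genes did), and 9 of the 10 were lower with FoxA1 shRNA. Their median difference was -0.44, against -0.017 for all genes detected on either array, and nothing is read from the count. PSAT1 differed by -0.96 (10.22 to 9.26), MTHFD2 by -0.92 (9.67 to 8.75) and MTHFD1 by -0.81 (7.11 to 6.30), each more than in the siRNA pair. GLDC, at 6.96 and 6.58, differed by only -0.38. GCSH, PHGDH, PSPH and SHMT2 differed by -0.53, -0.45, -0.43 and -0.19. SHMT1 was lower, 10.26 against 9.86, the opposite of every LNCaP pair, and its other probes gave -0.44 and -0.07 in the same direction. AMT was the 1 gene higher, 7.84 against 8.65.

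Across all 6 knockdown pairs, GLDC, GCSH, MTHFD1, MTHFD2 and PSAT1 were lower in each, 5 of the 10 genes, where 11.9% of the genes measured in all of them were. SHMT2 and PHGDH were lower in 5 of the 6 pairs, and SHMT1 was higher in 5. In PC-3M the FOXA1 probe read lower on the array labelled FoxA1. That array differed from its control by less than 2-fold for each of the 10 genes, where 2.48% of all genes passed that fold. PHGDH was 10.82 on the control and 11.51 on the array labelled FoxA1, MTHFD1 7.69 and 8.18, MTHFD2 9.90 and 10.36, and PSAT1 10.08 and 10.41. These 4 genes, lower in both the siRNA and the 22RV1 pair, were thus higher here, by 0.69, 0.49, 0.45 and 0.33. GLDC and PSPH differed by -0.33 and -0.35, SHMT2, GCSH and SHMT1 by 0.15, 0.06 and 0.01, and AMT was detected on neither array.

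**Figure D2:**
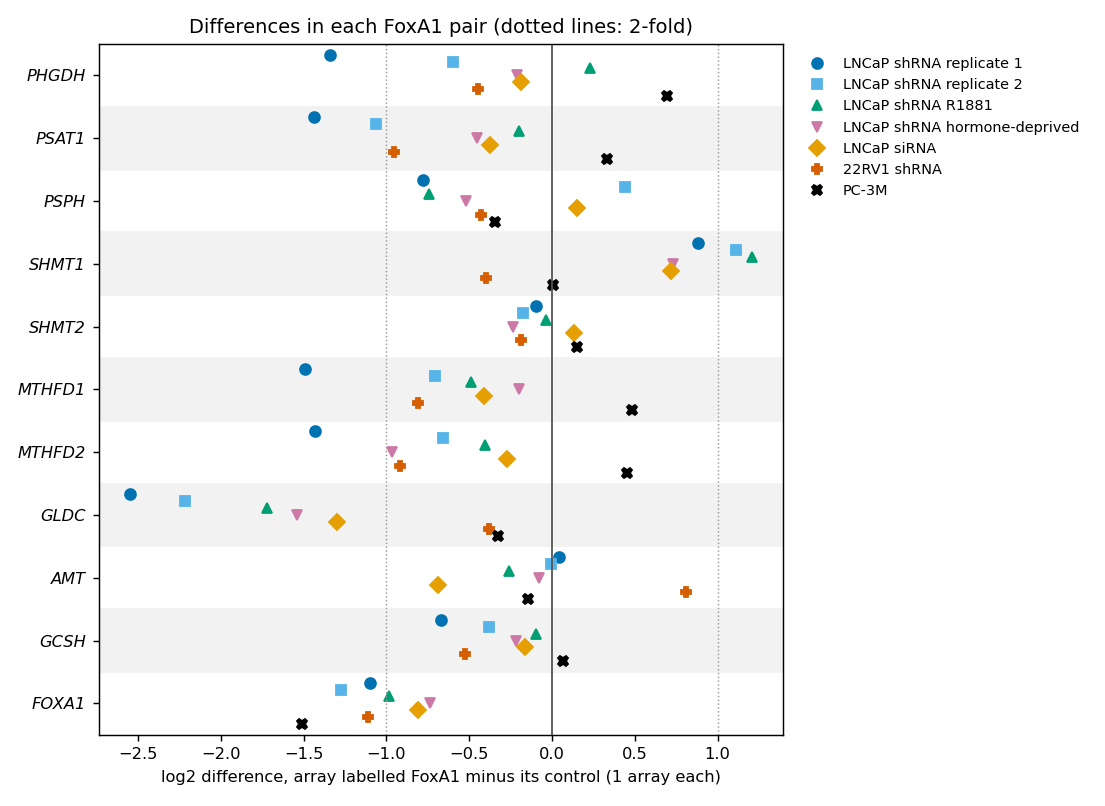
Log2 difference (horizontal axis) between the array labelled FoxA1 and its control for each of the 10 genes and FOXA1, with 1 symbol per pair, and dotted lines at 2-fold. GLDC lies left of 0 in all 7 pairs, with an undetected FoxA1 array in replicates 1 and 2, SHMT1 right of 0 in all 5 LNCaP pairs and at -0.40 in 22RV1, and replicate 1 of LNCaP shRNA has the lowest value for 7 of the 10 genes.

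Of the 10 genes, 7 were higher with R1881 than in hormone-deprived medium in shCtrl cells and 8 in shFoxA1 cells, nearly all by less than 2-fold. Their median differences were 0.27 and 0.22, against -0.014 and 0.011 for all genes detected on either array. These comparisons were known when the genes were picked, so nothing is read from the counts. The R1881 and hormone-deprived arrays used here are also 2 of the 4 pairs above, so both descriptions share them, and each group has 1 array per medium. MTHFD2 was 8.46 without hormone and 9.24 with R1881 in shCtrl cells, and 7.50 and 8.83 in shFoxA1 cells. Its differences of 0.78 and 1.34 were the largest of the 10 genes in both, and in shFoxA1 cells it was the 1 gene past 2-fold, where 2.98% of all genes were. In shCtrl cells none was by its brightest probe, against 2.77% of all genes, although a second GCSH probe, detected on both arrays, was 2.16-fold higher there.

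SHMT1 was higher with R1881 by 0.42 in shCtrl and 0.89 in shFoxA1 cells, MTHFD1 by 0.55 and 0.27, GCSH by 0.39 and 0.51, and SHMT2 by 0.27 and 0.47. GLDC differed by 0.09 and -0.09, so it was nearly level between media. PHGDH and PSAT1 were lower with R1881 in shCtrl cells, by 0.27 and 0.17, and higher in shFoxA1 cells, by 0.17 and 0.08, and PSPH was higher by 0.27 and 0.05. The second PSPH probe gave -0.32 and 0.60, so its probes differ in sign in shCtrl cells. AMT was detected only without hormone, and was at least 1.23-fold lower with R1881 in shCtrl and at least 1.13-fold lower in shFoxA1 cells. In the limma contrast of R1881 with hormone-deprived medium 30 of the 11892 genes, 0.252%, passed an adjusted p of 0.05, and 0 of the 10 genes were among them. At an unadjusted p below 0.05 there were 1378 genes. The fitted values furthest from 0 were 1.06 for MTHFD2 (SE 0.24), 0.65 for SHMT1 (SE 0.18) and 0.45 for GCSH (SE 0.23). The limma test of whether the knockdown difference itself differed between R1881 and hormone-deprived medium passed 0 of 11892 genes after adjustment, and 192 at an unadjusted p below 0.05. Each of its 4 groups is 1 array, so its spread comes only from the numbered replicates, with 2 residual degrees of freedom, and assumes that the single arrays vary like them.

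**Figure D3:**
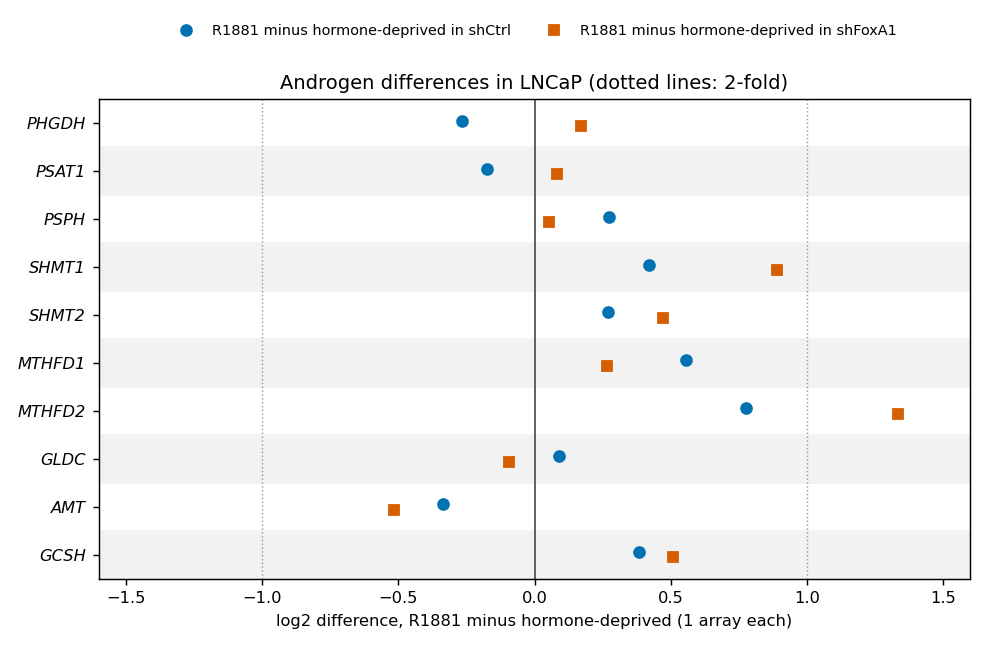
Log2 difference (horizontal axis) between the R1881 and the hormone-deprived array in LNCaP shCtrl (blue circles) and shFoxA1 cells (orange squares) for the 10 genes, 1 array per medium and group, dotted lines at 2-fold. MTHFD2 lies furthest to the right in both, at 0.78 and 1.34, and GLDC lies within 0.09 of 0.

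The control arrays of 22RV1 and LNCaP siRNA, measured in 1 table, were compared with 1 array each and without a test. Line and agent differ together, a stable control shRNA against a control siRNA, and cannot be told apart. Whether either array had R1881 is not known. AMT was 7.84 in 22RV1 and 5.10 in LNCaP, 6.69-fold higher in 22RV1. At least 2-fold higher there were 16.7% of all genes, and at least 2-fold lower 13.3%. PHGDH was 11.72 against 13.50, GCSH 9.05 against 10.58 and PSPH 8.18 against 9.60, all more than 2-fold lower in 22RV1. GLDC and PSAT1 were lower there by 0.95 each and MTHFD1 by 0.82. MTHFD2 was higher by 0.53, and SHMT1 and SHMT2 differed by -0.06 and 0.10. The second PSPH probe was lower in 22RV1 as well. The other SHMT1 probes, detected on both arrays, gave -1.85 and -0.19, so the SHMT1 probes disagree on the size of this difference. Neither of the other GCSH probes was detected in 22RV1.

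Genes of neighbouring routes were read from 7 lists of 107 genes, 9 of which had no named probe. Beside the counts of each list, 4.15% of all genes tested rose and 3.74% fell. The lists were chosen with earlier results of these data known, so nothing is read from their counts. In the folate cycle and folate uptake, 9 of 17 genes were measured, of which 0 rose, 2 fell and 7 did not pass, with a median of -0.39. TYMS, the thymidylate synthase that uses the folate carbon, fell by 1.15 (SE 0.28, limma adjusted p = 0.0444), and GGH, which trims folate polyglutamates, by 0.68 (SE 0.14, limma adjusted p = 0.0299). TYMS was lower by 2.33, 0.88, 0.88 and 0.52 in the 4 pairs, by 0.79 with siRNA and by 0.87 in 22RV1, and GGH by 1.09, 0.53, 0.65 and 0.44, then 0.73 and 0.96. For both genes the 4 shFoxA1 arrays lay below all shCtrl arrays.

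Of 11 measured genes of purine synthesis, 0 rose and 1 fell, with a median of -0.39. In all 4 pairs 7 of them were lower, where 18.5% of all genes were. The 1 that fell was PRPS1, which makes the ribose phosphate donor of nucleotides. It fell by 0.94 (SE 0.12, limma adjusted p = 0.00845), was lower by 0.79 to 1.14 in the 4 pairs, by 0.76 with siRNA and by 0.69 in 22RV1, and differed by -0.04 in PC-3M. Of 8 serine and glycine transporters 0 rose and 1 fell, with a median of -0.13. SLC1A5, a carrier of small neutral amino acids best known for glutamine, fell by 1.03 (SE 0.18, limma adjusted p = 0.0203). It was lower by 0.65 to 1.75 in the 4 pairs, by 0.28 with siRNA and by 1.31 in 22RV1.

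Among 14 other enzymes that make or use serine and glycine 1 rose and 0 fell, with a median of -0.08. GCLM, the modifier subunit of the enzyme that starts glutathione synthesis, rose by 0.62 (SE 0.12, limma adjusted p = 0.0248). It was higher in all 4 pairs by 0.46 to 0.74 and with siRNA by 0.57, and lower in 22RV1, where its difference was -0.49. In the methionine cycle and transsulfuration 0 of 11 genes passed the limma test in either direction (3 at an unadjusted p below 0.05, median -0.13). Of all 11892 genes, 3244 had an unadjusted limma p below 0.05 in this fit. Another list held ATF4, a factor known to drive serine synthesis genes, and those of its targets that are outside the 10 genes. Of its 16 measured genes 0 passed the limma test (3 at an unadjusted p below 0.05, median -0.04). The list says nothing of ATF4 targets among the 10 genes. ATF4 itself differed by -0.23 (SE 0.12) and ASNS, asparagine synthetase, by -0.61 (SE 0.24), neither past the test.

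Of the 12 measured genes of the proliferation list 6 fell and 0 rose, where 3.74% of all genes fell. All 12 were lower in all 4 pairs, where 18.5% of all genes were, and their median was -0.996. This list too was chosen with earlier results known, so nothing is read from these counts. MCM2, a subunit of the replicative helicase, fell by 1.63 (SE 0.41, limma adjusted p = 0.0476), and BUB1, a spindle checkpoint kinase, fell by 1.55 (SE 0.37, limma adjusted p = 0.0407). MCM7 fell by 0.99 (SE 0.24, limma adjusted p = 0.0443) and PCNA, the replication clamp, fell by 0.89 (SE 0.18, limma adjusted p = 0.0296). The list's median was -2.08 in replicate 1, -0.69 in replicate 2, -0.85 in the R1881 pair and -0.41 in the hormone-deprived pair, while that of the 10 genes was -1.06, -0.49, -0.23 and -0.23. The part of proliferation in the values of the 10 genes was not tested. The calls outside the 10 genes depend on which arrays are in the fit. Without the R1881 pair PRPS1 alone of these 11 genes still passed, with a limma adjusted p of 0.0471, and the other 10, the 6 of the proliferation list included, ranged from 0.0737 (SLC1A5) to 0.114 (TYMS). Without replicate 2 none of the 11 passed, with 0.111 for PRPS1 and 0.196 for BUB1 at the ends of the range. PRPS1 also remained alone when either the shCtrl or the shFoxA1 array of replicate 2 was left out, and with SLC1A5 when the shCtrl array of replicate 1 was. Without replicate 1 GGH (0.0585) and GCLM (0.0524) no longer passed, without the hormone-deprived pair GCLM (0.0599), MCM2 (0.0522), MCM7 (0.0620) and MCM6 (0.0596) did not, and under scaling by the median of each array GCLM did not (0.193).

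**Figure D4:**
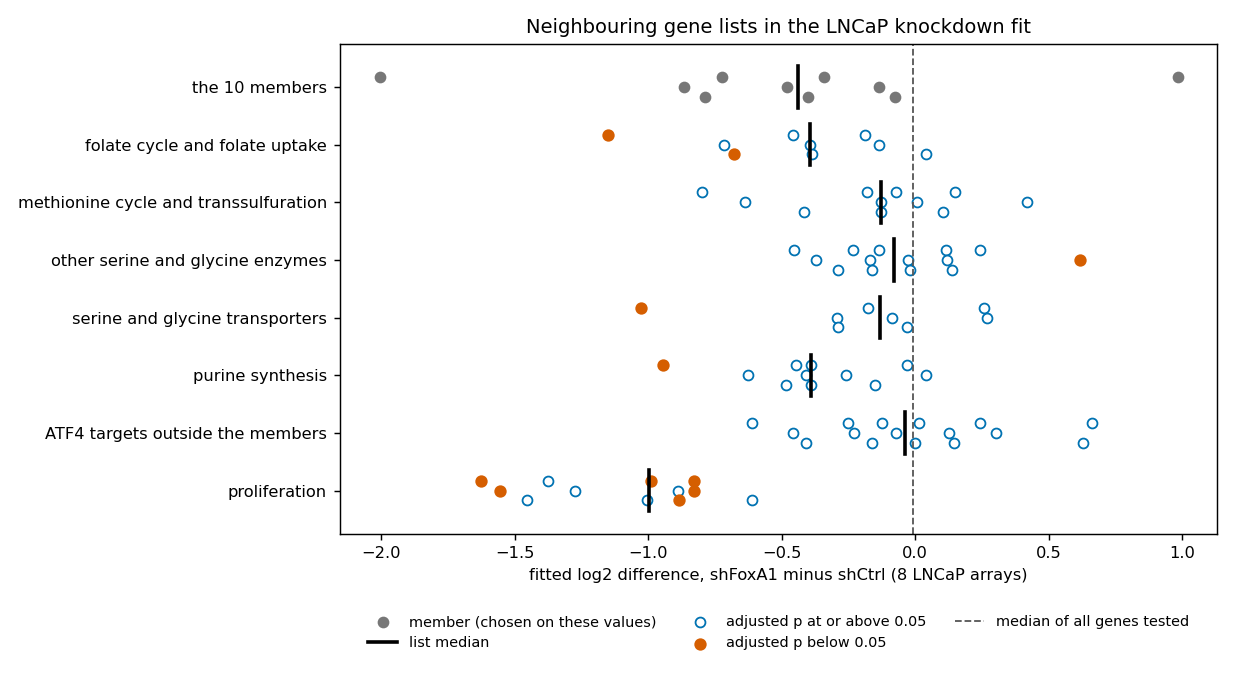
Fitted log2 difference between shFoxA1 and shCtrl (horizontal axis, 8 LNCaP arrays) of each gene of 8 lists, with the list median as a black bar, the median of all genes as a dashed line, and filled orange points for genes past an adjusted p of 0.05 outside the 10 genes, and grey points without a call for the 10 genes, which were chosen on these values. The proliferation list has the lowest median, -0.996, and the 10 genes span -2.01 to 0.98.

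In the contrast of R1881 with hormone-deprived medium 0 genes of these 7 lists passed the limma test. At an unadjusted p below 0.05 there were 0 to 3 per list, and 1378 among all 11892 genes. SLC1A5 had a fitted difference of 1.08 (SE 0.26) with a limma adjusted p of 0.151.

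The genes whose pattern over the 8 LNCaP shRNA arrays was most like that of GLDC were HES4 (Pearson r = 0.990), SLC25A40 (0.981), MCCC2 (0.981), FAM86C1P (0.979) and CCDC110 (0.979). The arrays share the knockdown, the medium and the normalization, so these are descriptions over 8 arrays. The fitted difference of MCCC2, a subunit of methylcrotonyl-CoA carboxylase, was -2.05, and its difference was -1.48 with siRNA. In 22RV1 MCCC2 was 0.33 higher, whereas GLDC was 0.38 lower. HES4, SLC25A40, FAM86C1P and CCDC110 had fitted differences of -0.73, -0.59, -1.24 and -0.72.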

How the data were processed

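RNA of 14 samples was hybridized to Illumina bead arrays, and probe values came from GenomeStudio (version not given), per the submitters' processing notes. For LNCaP shRNA and for PC-3M the deposited tables hold background-subtracted intensity and a detection p-value per probe, per the file headers; the deposited siRNA and 22RV1 table holds raw intensity, and its detection columns hold whole numbers and were not used. Each table was processed separately in R 4.3.3 with limma 3.58.1: normexp correction with an offset of 16, quantile normalization and log2. In the siRNA and 22RV1 table the most frequent intensity served as background, and probes more than 1.645 SD above it counted as detected; elsewhere a detection p below 0.05 did. The probe with the highest mean stood for each gene. Of 47323 probes 30113 carried 1 gene symbol, 8 several and 17202 none.

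The fit (lmFit and eBayes, with knockdown and a medium term of 3 labels) used the 8 LNCaP shRNA arrays, with 4 residual and 4.41 prior degrees of freedom. Genes passed at a two-sided Benjamini-Hochberg adjusted p below 0.05. The fit gives all media the same knockdown difference, so its residual also holds any change of that difference between media. On data simulated with this design over 11892 genes, 92 of 100 genes changed by 1 log2 unit and 99 of 100 changed by 2 were recovered, with 14 false calls. The simulated noise was independent between genes and arrays, with the same difference in all media. These figures therefore do not cover shifts that many genes share on an array. Single arrays were compared without a test at 2-fold, detected on the brighter array. Same-numbered arrays deviated from their group means with a correlation of -0.173 over 11892 genes. Members, lists, and the rule for named genes were chosen with earlier results of these data known. That rule names the 10 genes, FOXA1, up to 4 genes of each list past the knockdown fit and up to 2 past the androgen contrast, and the 5 genes most like GLDC; ATF4 and ASNS were added after their values were seen. The array files name no genome build. Alternatives are given in the closing section.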

Additional observations from a re-analysis of the deposited data

Results flagged for a closer look

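SHMT1 was lower in the 22RV1 pair, at -0.40, while it was higher in each of the 4 LNCaP shRNA pairs, by 0.73 to 1.21. GCLM was likewise lower in the 22RV1 pair, at -0.49, and higher in each of the 4 LNCaP shRNA pairs. Both differences between the lines rest on 1 array per group in 22RV1, come from tables normalized separately, and were not tested.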

How the results depend on the processing

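In the LNCaP knockdown fit 939 of 11892 genes, 3 of the 10 members and 11 other pathway genes passed. These counts were 25, 0 and 0 without background correction, 1457, 6 and 28 with median scaling, and 123, 1 and 1 without a medium term. All genes and other pathway genes came to 603 and 6 in the deposited matrix, 265 and 2 without a filter, 346 and 2 with 2 media, and 312 and 2 in the numbered replicates alone. The replicate block gave 527 and 6, and with the numbers crossed, an alternative chosen after seeing the data, 1138 and 15. Leaving arrays out gave 2 to 801 genes, 0 to 3 members and 0 to 14 other pathway genes, with the lowest counts without replicate 2, and 52, 1 and 1 without the R1881 pair. Median scaling moved the median of all genes to -0.14, with 247 higher and 1210 lower calls against 494 and 445. The androgen contrast passed 30 genes, and 9 without background correction, 50 with cyclic loess, 49 with median scaling, 6 in the deposited matrix, 3 without a filter, 48 when detected on all 8 arrays, 131 with 2 media, and 0 to 177 with arrays left out, where 1 member and 1 other pathway gene passed without replicate 1. The 13 member values at least 2-fold apart became 25 with median scaling and 31 at 1.5-fold. No value changed sign past its threshold. Over the alternatives the fitted difference ran from -4.07 to -1.31 for GLDC, 0.74 to 1.07 for SHMT1 and -1.09 to -0.68 for MTHFD2. Causes were not tested. Low signal limits GLDC with FoxA1 shRNA, AMT, and MTHFD1 on the replicate 1 shFoxA1 array.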
